A study of Mus musculus with 6 samples.

Results

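The mitochondrial carrier family was taken as the protein-coding genes whose symbol is *Slc25a* followed by a number, together with the uncoupling protein genes *Ucp2* and *Ucp3*. Symbols came from the GENCODE annotation of GRCm38. The rule uses no expression value, but it was set with earlier results of these data known. *Slc25a16*, *Slc25a20*, *Slc25a42* and *Slc25a44* were left out, as was *Ucp1*. Of the 47069 genes in the count tables, 45 met this rule, and 41 of these had enough counts to be tested among 17667 genes. The other 4 were *Slc25a18*, *Slc25a31*, *Slc25a41* and *Slc25a54*, whose highest count in any mouse was 16.

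Mitochondrial carriers are small proteins that sit mostly in the inner mitochondrial membrane, which is otherwise nearly closed to charged metabolites. Each moves a narrow set of substrates, such as ADP against ATP, phosphate, citrate, malate, glutamate or a cofactor, and so joins the reactions of the matrix to those of the cytosol. In brown and beige fat a close relative, UCP1, carries protons back into the matrix so that fuel oxidation releases heat, and this oxidation draws on fuel, nucleotides and cofactors that the other carriers bring in.

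RNA was sequenced from inguinal subcutaneous white adipose tissue (SC-WAT) of 3 *Egr1*+/+ and 3 *Egr1*-/- female mice aged 2 weeks, 1 library per mouse, to ask which genes depend on the zinc-finger transcription factor EGR1. All mice had a C57BL/6 background (C57BL/6 J in the published methods), received no stimulus and came from crosses of heterozygous parents, with 1 mutant and 1 wild-type mouse being littermates that were not identified. The published methods give fewer litters than mice, and the litter of each mouse is not given. The mutant allele carries a *LacZ* insertion in the untranslated 5′ part of the gene and a frameshift ahead of the DNA-binding domain, so that EGR1 is missing from all cells throughout life and some *Egr1* transcript can persist. Whole fat pads were extracted, so fewer cells of a type and less RNA per cell cannot be told apart.

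The libraries held 29661984 to 42357981 counts on genes, of which mitochondrially encoded genes took 50.0% to 57.4% in *Egr1*+/+ mice and 54.9% to 66.3% in *Egr1*-/- mice. *Egr1* itself had 353, 241 and 711 counts in *Egr1*+/+ replicates 1 to 3 and 103, 84 and 57 counts in *Egr1*-/- replicates 1 to 3. The genotypes did not overlap. Its mean level was 11.6 ± 4.39 CPM (SD, n = 3; CPM are counts per 1000000 of the scaled library size) against 2.55 ± 0.640, a log2 fold change of -2.19 (SE 0.299) and an adjusted p of 0.0879 by the quasi-likelihood test of edgeR, adjusted after Benjamini and Hochberg. Without *Egr1*-/- replicate 1 the adjusted p in edgeR was 0.0484. With DESeq2 on all mice the adjusted p of *Egr1* was 4.92e-10. Adipocyte markers such as *Fabp4*, a fatty acid-binding protein, summed to 6151 to 7816 CPM per mouse.

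In *Egr1*-/- SC-WAT, the carriers were on the whole slightly more abundant than in *Egr1*+/+ SC-WAT. Their log2 fold changes in edgeR ran from -0.89 to 0.74. Scaling by total counts alone moved all genes downward together, and the median carrier then lay just below 0 and still above the median gene. No carrier passed an adjusted p of 0.05 in edgeR, where 3 of 17667 genes did (0.017%), and the lowest adjusted p in the family was 0.176. At an unadjusted p under 0.05, 7 of 41 carriers (17.1%) were higher in *Egr1*-/- mice, beside 5.06% of all genes, and 1 (2.44%) was lower, beside 5.6% of all genes. Among the higher ones were *Slc25a22*, *Slc25a51*, *Slc25a11*, *Slc25a34*, *Slc25a33* and *Slc25a39*, and the lower one was *Slc25a10*. With DESeq2, *Slc25a22* and *Slc25a51* passed an adjusted p of 0.05 as higher in *Egr1*-/- mice, beside 0.702% of all genes, and none passed as lower, beside 1.14% of all genes. Without a filter on low counts, 4 carriers passed in edgeR, namely these 2 with *Slc25a34* and *Slc25a35*, all higher in *Egr1*-/- mice on average. They were 8.89% of the 45 members, beside 1.44% of the 38261 genes of that fit, of which 552 passed. Of the 4, *Slc25a35* overlapped between the genotypes and had an unadjusted p of 0.117 in edgeR with the filter.

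The levels in single mice showed the same lean. In 10 carriers (24.4%) every *Egr1*-/- mouse lay above every *Egr1*+/+ mouse, beside 8.15% of all genes, and in 2 carriers (4.88%) every *Egr1*-/- mouse lay below, beside 8.1% of all genes. The log2 fold change was positive in 28 of 41 carriers (68.3%), beside 50.1% of all genes. When scaled by total counts alone it was positive in 20 of 41 (48.8%), beside 29.5% of all genes. Its median over the carriers was 0.13, with a range of -0.89 to 0.74, while the median of all genes was 0.0011. Scaling by total counts alone took the median of all genes to -0.15 and that of the carriers to -0.02. The carrier median exceeded that of all genes by 0.13 under either scaling. Relative to the *Egr1*+/+ mean, the median carrier stood at -0.0020, 0.0427 and -0.0407 on the log2 scale in *Egr1*+/+ replicates 1 to 3, and at 0.1983, 0.1073 and 0.3432 in *Egr1*-/- replicates 1 to 3. All 3 mutant mice thus had the higher medians, and replicate 3 the highest.

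**Figure D1:**
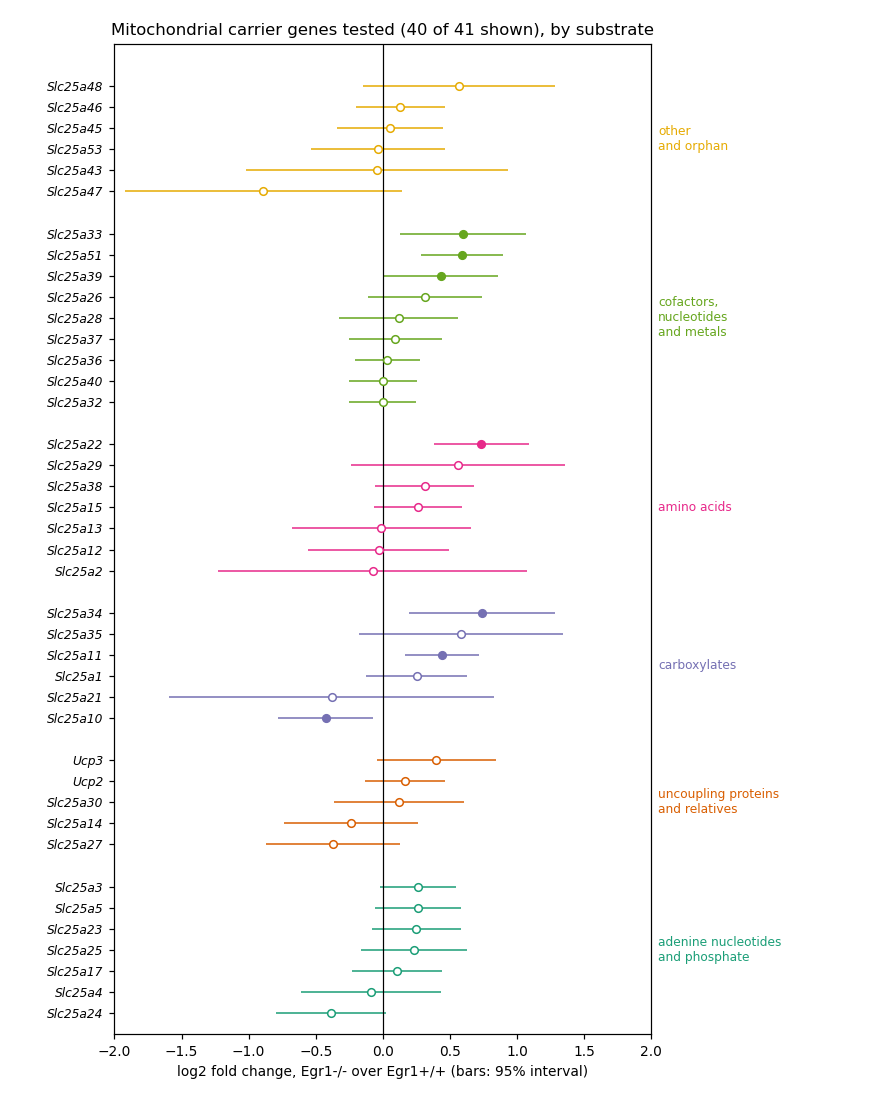
Log2 fold change of 40 of the 41 carriers tested, *Egr1*-/- over *Egr1*+/+ mice, with 95% intervals as bars, grouped and coloured by substrate; filled points had an unadjusted p under 0.05. Points run from -0.89 (*Slc25a47*) to 0.74 (*Slc25a34*), more points lie right of 0 than left of it (of all 41, 28 lie right, 68.3% beside 50.1% of all genes; scaled by total counts alone, 20 lie right, 48.8% beside 29.5% of all genes), and most intervals stay within -1 to 1.

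These data leave room for moderate differences in most members. The 95% interval of the log2 fold change lay within -1 to 1 in 31 of the 41 carriers and within -0.5 to 0.5 in 8. The spread between mice of one genotype, as a coefficient of variation of CPM, had a median of 14.1% in the carriers and 15.9% in all genes, from 3.21% in *Slc25a40* to 46.3% in *Slc25a21*. Of the 8 carriers with an unadjusted p under 0.05, *Slc25a22*, *Slc25a51* and *Slc25a11* kept it whichever mouse was left out, and the other 5 exceeded it in at least 1 such fit. The number of carriers with an unadjusted p under 0.05 was 5 without *Egr1*+/+ replicate 3 (11.9%, beside 7.58% of all genes) and 4 without *Egr1*-/- replicate 3 (9.52%, beside 6.38% of all genes).

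The sequences around the transcription start are shown for *Slc25a22* and *Slc25a11*, the carriers with the lowest p for which RefSeq gave one, and for *Slc25a10* and *Slc25a39*, those of the 8 whose windows hold a match to the EGR1 motif. Each runs 5′ to 3′ on the strand of its gene, from 250 bases before the RefSeq start to 50 after it (GRCm38.p6). The *Slc25a22* window is chr7:141437825-141438124 on the minus strand, that of *Slc25a11* is chr11:70646990-70647289 on the minus strand, that of *Slc25a10* is chr11:120491587-120491886 on the plus strand and that of *Slc25a39* is chr11:102407468-102407767 on the minus strand. Capitals mark the motif GCGNGGGCG on either strand.
Slc25a22: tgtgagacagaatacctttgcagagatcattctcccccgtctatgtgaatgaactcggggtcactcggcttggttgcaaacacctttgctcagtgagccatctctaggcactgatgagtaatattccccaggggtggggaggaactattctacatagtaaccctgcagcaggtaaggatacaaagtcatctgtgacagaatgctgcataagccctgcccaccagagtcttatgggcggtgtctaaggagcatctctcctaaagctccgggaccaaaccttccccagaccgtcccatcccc
Slc25a11: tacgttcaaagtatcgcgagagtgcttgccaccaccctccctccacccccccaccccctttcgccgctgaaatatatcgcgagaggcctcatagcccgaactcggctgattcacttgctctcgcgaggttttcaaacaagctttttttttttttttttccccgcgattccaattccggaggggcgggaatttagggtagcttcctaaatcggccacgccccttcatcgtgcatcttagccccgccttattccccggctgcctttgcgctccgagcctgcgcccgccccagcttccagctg
Slc25a10: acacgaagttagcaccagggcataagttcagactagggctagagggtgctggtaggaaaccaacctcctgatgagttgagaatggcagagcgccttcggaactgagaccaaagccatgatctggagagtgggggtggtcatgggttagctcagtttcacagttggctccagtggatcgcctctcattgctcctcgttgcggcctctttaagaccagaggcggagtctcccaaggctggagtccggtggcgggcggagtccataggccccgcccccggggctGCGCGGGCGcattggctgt
Slc25a39: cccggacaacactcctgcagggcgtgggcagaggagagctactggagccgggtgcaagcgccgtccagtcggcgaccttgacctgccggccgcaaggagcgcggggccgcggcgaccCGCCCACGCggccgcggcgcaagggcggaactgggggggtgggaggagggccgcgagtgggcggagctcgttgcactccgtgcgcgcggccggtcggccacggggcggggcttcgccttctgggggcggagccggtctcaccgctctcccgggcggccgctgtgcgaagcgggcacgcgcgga
In *Slc25a10* the match begins 31 bases after the start. In *Slc25a39* it begins 133 bases before the start, on the opposite strand.

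RefSeq windows were matched for 35 of the 45 carriers and for 17492 coding genes. The EGR1 motif GCGNGGGCG, searched on both strands, was present for 7 of the 35 carriers (20.0%) and for 8.5% of all coding genes. The 7 were *Slc25a1*, *Slc25a10*, *Slc25a14*, *Slc25a15*, *Slc25a23*, *Slc25a31* and *Slc25a39*. Their log2 fold changes pointed both ways, from -0.43 in *Slc25a10* to 0.43 in *Slc25a39*, apart from *Slc25a31*, which was not tested. The motif of NRF1, a regulator of nuclear genes for mitochondrial proteins, was searched as GCGCANGCG and was present for 2 of 35 carriers (5.7%), *Slc25a3* and *Slc25a31*, beside 9.6% of coding genes. The motif of the estrogen-related receptors, which act with the coactivator PGC-1α, was searched as TCAAGGTCA and was present for 0 of 35 carriers and 0.4% of coding genes. No matches of different motifs overlapped in a carrier's window. Among the members not matched were *Slc25a2*, *Slc25a26*, *Slc25a27*, *Slc25a32*, *Slc25a35*, *Slc25a37*, *Slc25a41*, *Slc25a46* and *Slc25a51*.

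The carriers of adenine nucleotides and phosphate include those that supply ADP and phosphate to ATP synthase. Of the 10 carriers in this group 7 were tested. None of the 7 passed an unadjusted p of 0.05 in either direction, and their median log2 fold change was 0.23. *Slc25a3*, the phosphate carrier, had 49.8, 65.5 and 55.4 CPM in *Egr1*+/+ replicates 1 to 3 and 69.6, 69.0 and 66.6 CPM in *Egr1*-/- replicates 1 to 3. All mutant mice lay above all wild-type mice, by a narrow margin at *Egr1*+/+ replicate 2. This gave a log2 fold change of 0.27 (SE 0.125, unadjusted p = 0.0630, adjusted p = 0.493 in edgeR).

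*Slc25a4* and *Slc25a5* encode the ADP/ATP carriers ANT1, the form of heart and skeletal muscle, and ANT2, the form of most other tissues. *Slc25a4* had 251.8, 263.6 and 185.2 CPM in *Egr1*+/+ replicates 1 to 3, and 182.5, 173.1 and 304.2 CPM in *Egr1*-/- replicates 1 to 3. Mutant replicates 1 and 2 lay below all wild-type mice and replicate 3 lay above them all. The log2 fold change was -0.09 (SE 0.232), and its sign changed with the mouse left out. *Slc25a5* had 94.3, 74.5 and 85.3 CPM in *Egr1*+/+ mice, and 91.7, 94.7 and 118.3 CPM in *Egr1*-/- mice. The overlap was limited to *Egr1*+/+ replicate 1, and the log2 fold change was 0.26 (SE 0.143, adjusted p = 0.574 in edgeR). An annotated processed copy, *Slc25a5-ps*, had at most 5 counts in any mouse, and how reads with several matches were counted is not given in the sources used here.

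*Slc25a23*, *Slc25a24* and *Slc25a25* are calcium-regulated exchangers of ATP-Mg for phosphate, which set the size of the matrix nucleotide pool. *Slc25a24* had 14.1, 13.5 and 13.7 CPM in *Egr1*+/+ mice, and 13.8, 9.20 and 8.60 CPM in *Egr1*-/- mice. *Egr1*-/- replicate 1 stood with the wild-type mice and the other two stood below them, with a log2 fold change of -0.39 (SE 0.182, unadjusted p = 0.0628). *Slc25a25* had 15.2, 21.7 and 21.6 CPM in *Egr1*+/+ mice and 20.4, 20.9 and 27.4 CPM in *Egr1*-/- mice, which overlapped (log2 fold change 0.23, SE 0.176). *Slc25a23* had a log2 fold change of 0.25. *Slc25a17*, a family member of the peroxisome, had 48.2, 40.1 and 44.6 CPM in *Egr1*+/+ mice and 47.9, 38.9 and 56.1 CPM in *Egr1*-/- mice. These overlapped, and the log2 fold change of 0.10 (SE 0.149) changed sign to -0.05 when scaled by total counts alone.

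The uncoupling proteins and their relatives included no gene with an unadjusted p under 0.05 among 5 tested, with a median log2 fold change of 0.12. *Ucp2*, a homologue of *Ucp1* that is abundant in immune and many other cells, had 97.0, 81.3 and 76.8 CPM in *Egr1*+/+ mice and 105.2, 91.7 and 88.8 CPM in *Egr1*-/- mice. The ranges overlapped, with a log2 fold change of 0.16 (SE 0.131). *Ucp3*, the homologue known from skeletal muscle and brown fat, had 33.1, 26.47 and 23.6 CPM in *Egr1*+/+ mice and 34.2, 28.4 and 47.0 CPM in *Egr1*-/- mice. *Egr1*-/- replicate 2 lay below *Egr1*+/+ replicate 1, and the log2 fold change was 0.40 (SE 0.197, unadjusted p = 0.0736). *Slc25a14*, *Slc25a27* and *Slc25a30*, relatives of the uncoupling proteins, had log2 fold changes from -0.37 to 0.12 at mean levels of 2.49 to 4.46 CPM.

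The group of carboxylate carriers pointed both ways, and it also holds *Slc25a34* and *Slc25a35*, whose substrates are not settled. Of 6 tested, 2 were higher (*Slc25a11* and *Slc25a34*) and 1 lower in *Egr1*-/- mice at an unadjusted p under 0.05, beside 5.06% and 5.6% of all genes. *Slc25a11*, the 2-oxoglutarate/malate carrier of the malate-aspartate shuttle, had 26.6, 27.3 and 25.8 CPM in *Egr1*+/+ replicates 1 to 3 and 36.4, 31.1 and 40.7 CPM in *Egr1*-/- replicates 1 to 3. The wild-type mice lay close together and all mutant mice lay above them. Its log2 fold change was 0.44 (SE 0.123, unadjusted p = 0.00579, adjusted p = 0.256 in edgeR). Of its exons, 8.9% overlap *Rnf167* on the opposite strand, which had 633 to 935 counts per mouse.

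*Slc25a10*, the dicarboxylate carrier that exchanges malate or succinate for phosphate and is abundant in white adipose tissue, ran the other way. It had 21.2, 16.3 and 14.7 CPM in *Egr1*+/+ mice and 14.3, 12.2 and 12.3 CPM in *Egr1*-/- mice. All mutant mice lay below all wild-type mice, with a small gap between *Egr1*-/- replicate 1 and *Egr1*+/+ replicate 3. The log2 fold change was -0.43 (SE 0.157, unadjusted p = 0.0237, adjusted p = 0.375 in edgeR), and without *Egr1*+/+ replicate 1 it was -0.27 with an unadjusted p of 0.0885. The unadjusted p was also over 0.05 without *Egr1*-/- replicate 2 (0.0713) and without *Egr1*-/- replicate 3 (0.0745).

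*Slc25a34*, whose substrate is not settled, had 4.51, 6.93 and 3.78 CPM in *Egr1*+/+ mice and 9.82, 7.04 and 8.41 CPM in *Egr1*-/- mice. All mutant mice were higher, *Egr1*-/- replicate 2 only just above *Egr1*+/+ replicate 2, with a log2 fold change of 0.74 (SE 0.241, unadjusted p = 0.0136, adjusted p = 0.319 in edgeR). The unadjusted p was 0.0521 without *Egr1*+/+ replicate 3 and 0.0506 without *Egr1*-/- replicate 1. *Slc25a1*, the citrate carrier that exports acetyl units for fatty acid synthesis, had 17.4, 14.8 and 11.5 CPM in *Egr1*+/+ mice and 17.4, 15.3 and 19.3 CPM in *Egr1*-/- mice. These overlapped (log2 fold change 0.25, SE 0.167). The remaining members of the group, *Slc25a21* and *Slc25a35*, had log2 fold changes of -0.38 and 0.58 with unadjusted p-values of 0.496 and 0.117. The latter had 22.4, 8.52 and 11.9 CPM in *Egr1*+/+ mice and 21.5, 15.1 and 27.7 CPM in *Egr1*-/- mice, which overlapped. *Slc25a35* shares 31.3% of its exon bases with *Rangrf* on the opposite strand, which had 30 to 65 counts per mouse, beside 256 to 856 for *Slc25a35*.

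Among the amino acid carriers, *Slc25a22* had the lowest p of the whole family. This glutamate carrier brings glutamate with a proton into the matrix. It had 4.16, 4.40 and 5.10 CPM in *Egr1*+/+ replicates 1 to 3 and 7.86, 7.33 and 7.53 CPM in *Egr1*-/- replicates 1 to 3. The gap between the genotypes was wider than the spread within either. On the log2 scale the fold change was 0.73 (SE 0.157, 1.66-fold), with an unadjusted p of 0.00114 and an adjusted p of 0.176 in edgeR and of 0.0238 in DESeq2. Leaving out any mouse gave log2 fold changes of 0.66 to 0.82 with unadjusted p-values of at most 0.00594. Its paralog *Slc25a18* was at 16 counts or fewer in every mouse.

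*Slc25a12* and *Slc25a13* encode the aspartate/glutamate carriers aralar and citrin, the latter best known from liver. *Slc25a12* had 9.61, 14.6 and 9.21 CPM in *Egr1*+/+ mice and 8.53, 10.2 and 13.97 CPM in *Egr1*-/- mice, which overlapped (log2 fold change -0.03, SE 0.232). *Slc25a13* had 1.25, 2.26 and 2.27 CPM in *Egr1*+/+ mice and 1.71, 2.23 and 1.81 CPM in *Egr1*-/- mice, which also overlapped (log2 fold change -0.01, SE 0.295). Neither sign was stable, since both changed with the mouse left out. The other amino acid members tested were *Slc25a15* and *Slc25a2*, which carry ornithine, *Slc25a29*, which carries basic amino acids, and *Slc25a38*, which carries glycine for haem synthesis. Their log2 fold changes ran from -0.08 to 0.56, with unadjusted p-values of 0.088 to 0.885, and in *Slc25a29* and *Slc25a38* all mutant mice lay above all wild-type mice.

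The carriers of cofactors, nucleotides and metals included 4 of 10 at an unadjusted p under 0.05, each higher in *Egr1*-/- mice, beside 5.06% of all genes. *Slc25a51*, which imports NAD+ into the matrix, had 69.9, 61.4 and 61.1 CPM in *Egr1*+/+ replicates 1 to 3 and 100.9, 81.4 and 107.9 CPM in *Egr1*-/- replicates 1 to 3. All mutant mice lay above all wild-type mice, with *Egr1*-/- replicate 2 the nearest. Its log2 fold change was 0.59 (SE 0.135, 1.51-fold), with an unadjusted p of 0.00175 and an adjusted p of 0.198 in edgeR and of 0.00938 in DESeq2.

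*Slc25a39*, an importer of glutathione, had 17.5, 21.2 and 16.2 CPM in *Egr1*+/+ mice and 30.0, 18.3 and 25.6 CPM in *Egr1*-/- mice. *Egr1*-/- replicate 2 stood inside the wild-type range, with a log2 fold change of 0.43 (SE 0.188, unadjusted p = 0.0472, adjusted p = 0.461 in edgeR). Its unadjusted p was 0.102 to 0.186 without *Egr1*+/+ replicate 1 or 3 or *Egr1*-/- replicate 1 or 3.

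*Slc25a33* and *Slc25a36* encode carriers of pyrimidine nucleotides, used for the synthesis of mitochondrial RNA and DNA. *Slc25a33* had 5.12, 5.96 and 4.69 CPM in *Egr1*+/+ mice and 6.24, 7.43 and 10.2 CPM in *Egr1*-/- mice. No mutant mouse overlapped the wild-type mice, and replicate 3 was well above the others. The log2 fold change was 0.60 (SE 0.209, unadjusted p = 0.0184, adjusted p = 0.345 in edgeR), and the unadjusted p was 0.0861 without *Egr1*-/- replicate 3, 0.0654 without *Egr1*+/+ replicate 3 and 0.0518 without *Egr1*+/+ replicate 1. *Slc25a36* had a log2 fold change of 0.03, and its 95% interval ran from -0.21 to 0.28. The mitoferrins *Slc25a28* and *Slc25a37*, which import iron, the folate carrier *Slc25a32*, the S-adenosylmethionine carrier *Slc25a26* and *Slc25a40*, a paralog of *Slc25a39*, had log2 fold changes of -0.0006 to 0.32 with unadjusted p-values of at least 0.129.

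Of the 6 remaining carriers, many of whose substrates are not settled, none had an unadjusted p under 0.05, and their median log2 fold change was 0.0082. *Slc25a47*, a carrier known from liver, had only 0.407, 0.433 and 0.394 CPM in *Egr1*+/+ mice and 0.270, 0.161 and 0.226 CPM in *Egr1*-/- mice. All mutant mice lay below all wild-type mice, with a log2 fold change of -0.89 (SE 0.457, unadjusted p = 0.0826). *Slc25a46*, which sits in the outer membrane and takes part in mitochondrial fission and fusion, had a log2 fold change of 0.13. *Slc25a43*, *Slc25a45*, *Slc25a48* and *Slc25a53* ran from -0.04 to 0.57, with mean levels from 0.551 CPM upwards.

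**Figure D2:**
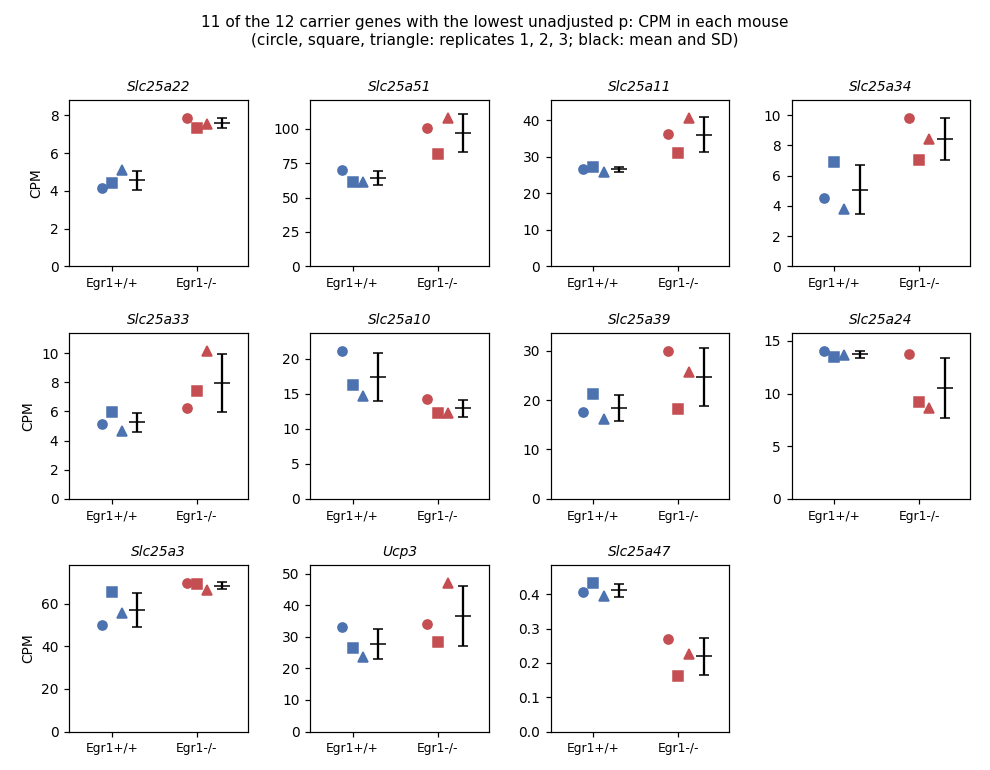
CPM in each mouse for 11 of the 12 carriers with the lowest unadjusted p, 1 panel per gene, with the axis from 0; blue is *Egr1*+/+, red is *Egr1*-/-, and black marks give the mean and SD of 3 mice. Among these 11, *Slc25a22* shows the widest gap between the genotypes against its spread, 4.16 to 5.10 CPM against 7.33 to 7.86 CPM, and *Slc25a10* and *Slc25a47* are the ones with all *Egr1*-/- mice below.

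Per exon length, the family in SC-WAT was dominated by the ADP/ATP carriers. Over the 6 mice, *Slc25a4* made up 28.3% of the summed CPM per kilobase of exon (RPKM) of the 45 carriers and *Slc25a5* 16.7%, while *Slc25a17* had 4.77%, *Slc25a11* 4.35%, *Slc25a51* 4.28% and *Ucp2* 3.84%. The share of *Slc25a4* was 31.3%, 34.8% and 26.72% in *Egr1*+/+ mice, against 22.7%, 23.8% and 30.5% in *Egr1*-/- mice, which overlapped. The share of *Slc25a51* was 3.71%, 3.46% and 3.76% in *Egr1*+/+ mice, against 5.35%, 4.77% and 4.62% in *Egr1*-/- mice. Here the mutant mice were all higher. The summed level of the carriers was 1013 to 1134 CPM in *Egr1*+/+ mice and 1070 to 1390 CPM in *Egr1*-/- mice, and without *Slc25a4* it was 813.5 to 882.1 CPM against 897.4 to 1086 CPM.

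**Figure D3:**
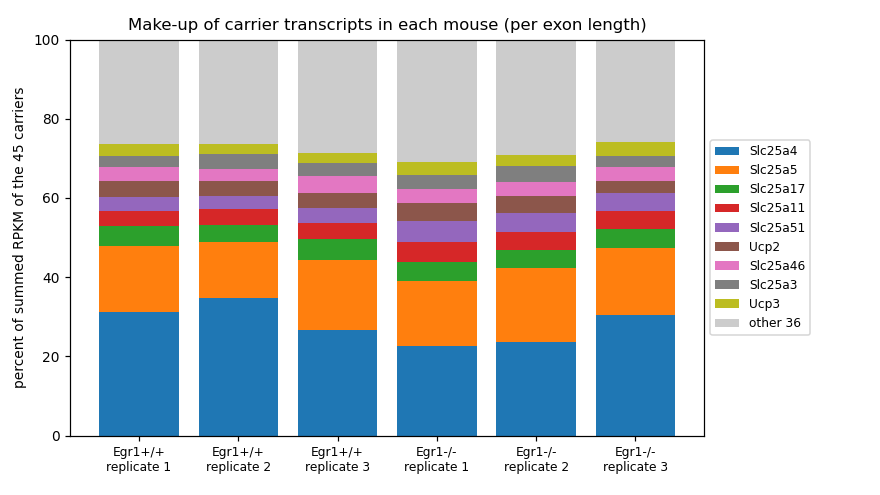
Percent of the summed RPKM of the 45 carriers that each gene took in each of the 6 mice, as stacked bars for 9 of the 10 most abundant genes and the other 36 together. *Slc25a4* takes 22.7% to 34.8% and *Slc25a5* 14.04% to 18.6% of the bar, and *Slc25a51* is wider in the 3 *Egr1*-/- mice (4.62% to 5.35%) than in the 3 *Egr1*+/+ mice (3.46% to 3.76%).

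The balance within pairs of closely related carriers was compared by the log2 ratio of their RPKM in each mouse. Of 8 pairs chosen, 7 had enough counts, and *Slc25a18*/*Slc25a22* did not. In 1 of the 7 the genotypes did not overlap. The log2 ratio of *Slc25a33* to *Slc25a36* was -1.21, -1.04 and -1.52 in *Egr1*+/+ mice, against -0.99, -0.75 and -0.41 in *Egr1*-/- mice. The difference was 0.54 (exact two-sided permutation test, p = 0.1, the smallest that 3 against 3 mice can give, and 0.467 adjusted over the 7 pairs). For *Slc25a4*/*Slc25a5* the ratio differed by -0.38 and for *Slc25a39*/*Slc25a40* by 0.41, each with overlap and an exact permutation p of 0.2. The other 4 pairs overlapped, with differences of -0.21 to 0.05.

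Other parts of the mitochondrial transport system were read from lists chosen by function. Of 21 genes listed as other inner-membrane transporters, such as the pyruvate carrier subunits *Mpc1* and *Mpc2*, 4 were higher and 0 lower in *Egr1*-/- mice at an unadjusted p under 0.05 (19.0% higher, beside 5.06% of all genes). Their median log2 fold change was 0.16. The list also held *Mtch1* and *Mtch2*, which sit in the outer membrane and belong to the carrier family under other symbols. *Mtch2* was among the 4 (log2 fold change 0.45). At the same p, 1 of 23 tested outer-membrane channels and import components was higher (4.35%, below the 5.06% of all genes), with 0 lower. The median of that list was 0.21. The 5 carriers listed as outside the rule, which leave out *Mtch1* and *Mtch2*, had a median of 0.62. Of these 5, 3 had an unadjusted p under 0.05. These were *Ucp1* (340.5 ± 52.1 CPM against 792.4 ± 197.3 CPM, log2 fold change 1.22), *Slc25a42*, a coenzyme A carrier (27.6 ± 3.51 CPM against 53.6 ± 4.62 CPM, 0.96), and *Slc25a20*, the carnitine/acylcarnitine carrier (95.6 ± 8.99 CPM against 146.8 ± 36.1 CPM, 0.62), with SD over 3 mice each. No gene of these 3 lists passed an adjusted p of 0.05 in edgeR. DESeq2 gave 3 such genes, all among the 5 carriers listed as outside the rule.

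Summed marker levels of 4 cell types did not overlap between the genotypes. Brown or beige fat markers were higher in *Egr1*-/- mice in 6 of 6 tested at an unadjusted p under 0.05 (7 listed, none at 0 in all mice), with a median log2 fold change of 1.03, and their summed level was 521 to 668 CPM in *Egr1*+/+ mice and 919.6 to 1539 CPM in *Egr1*-/- mice. Among the mutant mice it was lowest in replicate 2, with 919.6 CPM, and highest in replicate 3, with 1539 CPM, and the median carrier was also lowest in replicate 2 and highest in replicate 3. The orders differed among the wild-type mice. There the sums were 668, 535.7 and 521 CPM in replicates 1 to 3, and the median carrier was highest in replicate 2. At an unadjusted p under 0.05, 5.06% of all genes were higher and 5.6% lower in *Egr1*-/- mice. Macrophage markers passed it as lower in 4 of 5, and all 5 had negative log2 fold changes. Their sums were 279.4 to 363 CPM in *Egr1*+/+ mice against 212 to 248.7 CPM in *Egr1*-/- mice. Fibroblast and progenitor markers passed it as lower in 5 of 5, with sums of 1345 to 1444 CPM against 765 to 1063 CPM. The study had already reported *Ucp1*, *Cidea*, *Cox8b*, *Dio2* and *Ppargc1a* as upregulated and *Dcn* and *Col1a1* as downregulated in this RNA sequencing. The counts for the brown or beige and the fibroblast lists are therefore not independent of that report. Of 6 adipocyte markers, 5 had negative log2 fold changes (list median -0.11), and 1 passed as lower. Their sums were 7244 to 7816 CPM against 6151 to 7136 CPM. Of 4 endothelial markers, 2 had negative log2 fold changes (list median -0.01), and 1 passed as lower. All 6 lymphocyte markers had positive log2 fold changes (list median 0.43), and 1 passed as higher. Mammary epithelial markers summed to 0.815 to 9.99 CPM. The part of these cell types in the carrier levels was not tested.

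**Figure D4:**
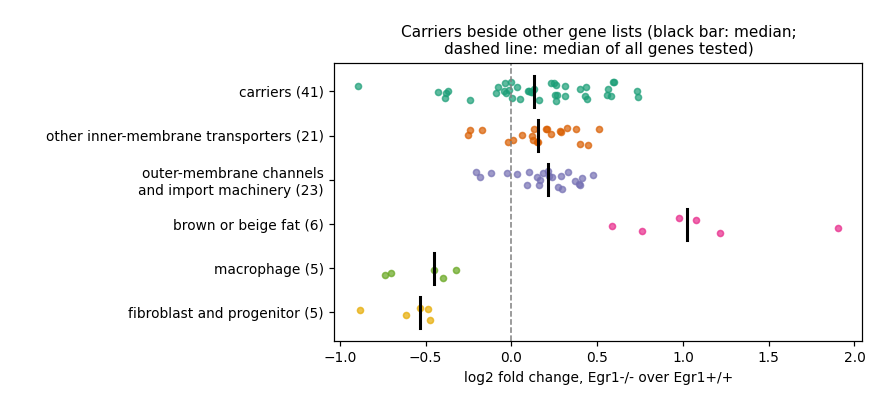
Log2 fold change, *Egr1*-/- over *Egr1*+/+, of each tested gene in 6 lists, 1 point per gene spread vertically at random, with the number of genes in brackets, the list median as a black bar and the median of all genes (0.0011) as a dashed line. The carrier median is 0.13 (scaled by total counts alone, -0.02 beside -0.15 for all genes), near those of the other inner-membrane transporters (0.16) and the outer-membrane and import list (0.21), and the brown or beige fat list lies at 1.03. The inner-membrane list also holds *Mtch1* and *Mtch2*, carrier-family members of the outer membrane.

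Skeletal muscle RNA varied widely between mice within each genotype. The 10 muscle markers, such as *Acta1* and *Ckm*, summed to 1074, 3303 and 206.8 CPM in *Egr1*+/+ replicates 1 to 3 and to 98.7, 355.8 and 2635 CPM in *Egr1*-/- replicates 1 to 3, with 0 of 10 past an unadjusted p of 0.05. *Egr1*+/+ replicate 2 and *Egr1*-/- replicate 3 had the most, and these mice also had the highest *Slc25a4* and *Slc25a12* levels of their genotypes. With the muscle sum as a covariate, an analysis added after seeing the data, the log2 fold change of *Slc25a4* was 0.04 and that of *Slc25a12* was 0.11. That of *Slc25a22* was 0.70 and that of *Slc25a51* was 0.61, close to their values without it, and 7 carriers were higher and 2 lower at an unadjusted p under 0.05 (22% in all, beside 10.3% of all genes). Without the 2 mice richest in muscle RNA, 5 of 42 carriers were higher and 0 lower (11.9%, beside 8.66% of all genes), and the log2 fold changes were 0.71 for *Slc25a22*, 0.48 for *Slc25a51*, 0.37 for *Slc25a11*, -0.43 for *Slc25a10* and -0.30 for *Slc25a4*.

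**Figure D5:**
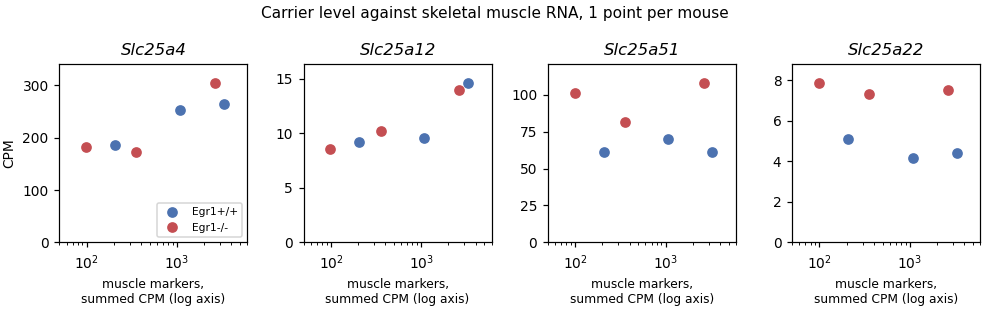
CPM of 4 carriers against the summed CPM of 10 skeletal muscle markers (log axis), 1 point per mouse, blue for *Egr1*+/+ and red for *Egr1*-/-. *Slc25a4* and *Slc25a12* are highest in the mice with 2635 and 3303 CPM of muscle markers, while for *Slc25a51* and *Slc25a22* the red points lie above the blue ones along the whole axis.

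The carrier genes lie on 19 chromosomes, and few are neighbours. *Slc25a29* and *Slc25a47* are 162 bases apart on chromosome 12, *Slc25a41* and *Slc25a23* 2.1 kb apart on chromosome 17, *Slc25a54* and *Slc25a24* 6.5 kb apart on chromosome 3, and *Ucp3* and *Ucp2* 6.9 kb apart on chromosome 7 (GRCm38). These gaps run between the outer ends of the genes in GENCODE. *Slc25a29* ends there at base 108835883, while the RefSeq window around the start of *Slc25a47* is farther away, at chr12:108850879-108851178. The neighbours *Slc25a29* and *Slc25a47* had log2 fold changes of 0.56 and -0.89, and *Ucp3* and *Ucp2* had 0.40 and 0.16.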

How the data were processed

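Total RNA of whole inguinal fat pads was depleted of ribosomal RNA and made into strand-specific libraries, 1 per mouse. The authors mapped the reads to GRCm38 with TopHat2 and Bowtie2, assigned them to GENCODE genes with featureCounts, and deposited raw counts per gene without normalization. The strand and multimapping settings of the counting are not given in the sources used here, and read length and pairing differ between the labels and the published methods. Genotypes came from the sample labels, and no sample was left out.

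Gene identifiers were matched without version to GENCODE M21, which named 46574 of 47069 genes. Genotypes were compared with edgeR 4.0.16 in R 4.3.3 (TMM, filterByExpr, quasi-likelihood test, no covariate). Adjustment followed Benjamini and Hochberg over 17667 genes at a threshold of 0.05. CPM used TMM-scaled library sizes including mitochondrial genes, with TMM factors of 0.787 to 1.17, and RPKM divided CPM by the exon length in kilobases. Standard errors were the absolute fold change (log2) divided by the root of F, and 95% intervals used the t quantile of the fit. DESeq2 1.42.0, limma 3.58.1, other scalings and filters, a replicate block and omission of each mouse in turn served as alternatives, and 2 alternatives on skeletal muscle were added after seeing the data. Log2 ratios of paralogs were tested by exact permutation in Python 3.11.15 with scipy 1.17.1. The edgeR step was tested on simulated data.

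The members, gene lists, motifs and tests were chosen with earlier results of these data known. Values in each mouse are given for the 12 carriers with the lowest p, the 5 with the highest mean RPKM and a set named for its function, and the others by range, apart from 1 carrier that is counted but not reported here. The mice are separate animals, and p-values measure the spread between them. Some mice shared a litter, which is not given for each mouse and did not enter the tests. Promoter sequences are from RefSeq (GRCm38.p6).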

Additional observations from a re-analysis of the deposited data

How the results depend on the processing

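Among 377 recomputed log2 fold changes of 21 genes (20 carriers and *Egr1*), 345 kept their direction and their side of an adjusted p of 0.05, 13 newly passed it, 0 lost it and 19 changed sign, the last in *Slc25a4*, *Slc25a12*, *Slc25a13* and *Slc25a17*. None of the 21 genes passed it in the main fit, so none could lose it. The cause of the new passes and of the changes of sign was not tested. Genes past the adjusted threshold numbered 325 with DESeq2 (372 with independent filtering), 1 with limma-voom, 0 with upper-quartile scaling, 79 with total counts alone, 552 without a filter on low counts, 0 with at least 10 counts in every mouse, 0 with the replicate block, 6 with the skeletal muscle covariate, 0 without the 2 mice richest in muscle RNA, and 0 to 59 when each mouse was left out, 59 without *Egr1*-/- replicate 1 and 0 without any other. Carriers past it numbered 2 with either DESeq2 setting and 4 without a filter (*Slc25a22*, *Slc25a34*, *Slc25a35* and *Slc25a51*), and 0 in the other fits. Carriers with an unadjusted p under 0.05 numbered 4 with total counts alone (9.76%, beside 8.89% of all genes), 5 without the 2 muscle-rich mice (11.9%, beside 8.66%), and 4 to 11 when each mouse was left out (9.52% to 26.8%, beside 6.38% to 13% of all genes). The median log2 fold change of the carriers was -0.0205 with total counts alone, beside -0.1469 for all genes, and 0.1333 to 0.2346 when each mouse was left out. *Slc25a17* had -0.0457 with total counts alone and -0.0963 without the muscle-rich mice. *Slc25a13* had 0.0221 with limma-voom, 0.0046 without a filter, 0.0247 with the replicate block and 0.1499 without the muscle-rich mice. With the muscle covariate *Slc25a4* had 0.0412 and *Slc25a12* 0.1131. When each mouse was left out, *Slc25a4* ran from -0.3909 to 0.0647, *Slc25a12* from -0.2482 to 0.2111, *Slc25a13* from -0.2586 to 0.1256 and *Slc25a17* from -0.0276 to 0.2346. The paralog differences ran from -0.3303 to 0.1306 for *Slc25a12*/*Slc25a13*, -0.1655 to 0.3453 for *Slc25a23*/*Slc25a25*, -0.2449 to 0.2485 for *Slc25a28*/*Slc25a37* and -0.3532 to 0.0327 for *Ucp2*/*Ucp3*.

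The replicate numbers were not shown to pair the mice: deviations from the genotype means correlated at -0.0888, 0.106 and -0.126 over 17667 genes. With the replicate block 0 carriers passed the adjusted threshold, 9 had an unadjusted p under 0.05 (22%, beside 10.8% of all genes) and the median log2 fold change was 0.1454. Low counts limit *Slc25a47*, *Slc25a2*, *Slc25a21*, *Slc25a29* and *Slc25a43*, each under 1 CPM on average in *Egr1*+/+ mice.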
